A study of Mus musculus with 9 samples.

Results

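The genes described here encode the chaperones, folding enzymes and degradation factors of the endoplasmic reticulum (ER), and they were measured in cultured mouse podocytes by RNA sequencing. They were chosen by symbol, as a list of 46 genes, with earlier results of these data known. All 46 were found among the 55385 genes of the deposited table. By role they were 3 stress sensors and transcription factors, 10 Hsp70 and Hsp90 chaperones with their co-chaperones, 3 genes of the calnexin and calreticulin cycle, 9 disulfide isomerases and related genes, 4 prolyl isomerases, 7 genes of the translocon and signal peptidase, and 10 genes of ER-associated degradation. The cells were the line MCP5, labelled as podocytes of wild-type genotype, the cells that wrap the capillaries of the glomerulus with their foot processes. The 3 groups of 3 libraries each were a blank control, glucose at 50 mmol/L (high glucose), and AGEs, the advanced products of glycation that form when sugars modify proteins, at 400 µg/mL. The duration of treatment is not given in the sources used here, and no osmotic control or carrier protein control was analysed here. The series was made to find genes whose expression differs among the 3 groups. The labels number the libraries within a group and do not state separate cultures, so the p-values rest on a spread among libraries that could be technical alone.

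Secreted and membrane proteins enter the ER through the Sec61 translocon and are folded there by the Hsp70 protein BiP (Hspa5), the Hsp90 protein Grp94 (Hsp90b1), the lectin chaperones and the disulfide and prolyl isomerases. Proteins that fail to fold are returned to the cytosol by the Hrd1 (Syvn1) and Sel1l complex and degraded, a process called ER-associated degradation. When unfolded protein accumulates, the sensors Ire1 (Ern1), Atf6 and Perk signal to the nucleus, and Atf6 and the spliced form of Xbp1 induce many of these genes through ER stress elements in their promoters. Podocytes secrete and renew basement membrane and slit diaphragm proteins, and ER stress in them has been studied in kidney disease.

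The promoter sequences are shown first because ER stress elements are the letters through which the response is known to act on these genes. RefSeq promoters (GRCm38.p6, from 250 bases before to 50 after the start of transcription) were found for 39 of the 46 members, and not used here for Manf, Derl1, Spcs3, Sec61a1, Hspa13, Hyou1 and Atf6. The ER stress element ERSE (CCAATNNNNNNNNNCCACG, where N is any base, searched on both strands) was found in 9 of these 39 members (23.1%), and in 37 of all 27025 genes with a promoter of the same length (0.137%). The sites follow, read 5′ to 3′ on the strand that carries the element, with 10 bases on each side and the CCAAT and CCACG parts in capitals.
Hspa5: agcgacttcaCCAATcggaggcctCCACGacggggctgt
Hsp90b1 (site 1): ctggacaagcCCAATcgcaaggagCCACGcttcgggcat
Hsp90b1 (site 2): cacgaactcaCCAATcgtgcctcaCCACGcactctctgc
Calr: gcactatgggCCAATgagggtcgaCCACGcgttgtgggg
Canx: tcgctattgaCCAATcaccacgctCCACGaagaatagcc
Dnajc3: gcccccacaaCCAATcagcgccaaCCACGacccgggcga
Pdia6: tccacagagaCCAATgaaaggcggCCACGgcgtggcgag
Creld2: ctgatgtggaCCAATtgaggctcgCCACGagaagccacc
Syvn1: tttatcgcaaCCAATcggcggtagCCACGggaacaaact
Derl3: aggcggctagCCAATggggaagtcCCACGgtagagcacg

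The first site of Hsp90b1 lay at chr10:86705638-86705656 and the site of Hspa5 at chr2:34772025-34772043, from 65 to 47 bases before the RefSeq start. Hsp90b1 was the member with 2 such sites, 1 on each strand. The variant ERSE-II (ATTGGNCCACG) was found in 2 members (5.13%), Dnajb11 and Herpud1, and in 12 of the 27025 genes (0.0444%). Both sites are shown in the same way.
Dnajb11: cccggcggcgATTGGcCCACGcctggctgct
Herpud1: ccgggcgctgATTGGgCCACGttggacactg

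The Herpud1 site lay at chr8:94386377-94386387, from 52 to 42 bases before the start. The whole windows of Hspa5, the central chaperone of the pathway, and Herpud1, the member with the largest change, are given next on the strand of the gene with the matches in capitals. They span chr2:34771840-34772139 and chr8:94386179-94386478, both on the plus strand. The second match in the Herpud1 window is a CARE element (TGATGNAA, the amino acid response element read by Atf4), on the minus strand.
Hspa5 promoter: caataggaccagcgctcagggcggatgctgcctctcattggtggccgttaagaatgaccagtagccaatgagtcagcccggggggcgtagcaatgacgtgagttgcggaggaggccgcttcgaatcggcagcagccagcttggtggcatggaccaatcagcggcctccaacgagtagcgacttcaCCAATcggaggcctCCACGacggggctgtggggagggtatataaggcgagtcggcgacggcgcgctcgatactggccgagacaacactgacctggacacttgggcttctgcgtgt
Herpud1 promoter: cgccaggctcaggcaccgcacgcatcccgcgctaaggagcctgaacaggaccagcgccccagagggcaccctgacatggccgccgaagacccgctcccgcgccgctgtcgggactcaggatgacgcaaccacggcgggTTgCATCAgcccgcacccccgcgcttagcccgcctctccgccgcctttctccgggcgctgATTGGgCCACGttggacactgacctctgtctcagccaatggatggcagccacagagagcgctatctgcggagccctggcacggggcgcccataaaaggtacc

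The unfolded protein response element UPRE (TGACGTGG) was found in 3 members, Txndc5, Txndc11 and Vcp (7.69%, against 0.714% of all genes with a promoter). CARE was found in Txndc5 and Herpud1 (5.13%, against 4.51%). The CCAAT box alone, which every ERSE contains and whose reverse complement opens ERSE-II, was found in 30 members (76.9%, against 41.1%). A match is a description of these letters in this window and not a bound site. Where RefSeq lists several starts for a gene, the window of each was searched, and the gene was counted once. The single RefSeq start of Spcs2 lay 4579 bases from its gene start in the deposited table, so that its window may not hold the start used in these cells. The UPRE of Txndc11 lay in the window of the nearer of its RefSeq starts, 118 bases from the gene start of the deposited table. For Txndc5 the UPRE lay in the window of a start 576 bases from its gene start, and the CARE in one 334 bases away. The window of its nearest start, 6 bases away, held neither.

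Total counts ranged from 46284878 (high glucose library 2) to 77242281 (high glucose library 1), and all 46 members passed the filter on low counts, which left 17680 genes. The first principal component separated the high glucose libraries from the others, and AGEs library 3 stood apart on the second. Of 15 podocyte markers 9 passed the filter, while Foxc2 and Trpc6 had 0 counts in every library; the summed level was 802 to 1114 CPM for control, 959 to 1023 for high glucose and 1174 to 1222 for AGEs. In high glucose 2 podocyte markers were higher and 0 lower. Some markers of other cell types also moved with high glucose, beside 19.6% of all genes tested that rose and 19.7% that fell. Higher were 4 of 8 parietal epithelial markers (summed level 1079 to 1130 CPM for control, 2089 to 2272 for high glucose, 1014 to 1292 for AGEs), as were all 3 tubular markers that passed the filter of 8 listed (123 to 126, 356 to 396 and 121 to 158 CPM). Slc34a1, Umod and Aqp2, which define tubular segments, had 0 counts in every library. In the same order of groups, 2 of 3 endothelial markers tested were higher in high glucose (5.59 to 5.94, 12.5 to 15.2 and 4.20 to 5.01 CPM summed) and 1 of 6 mesangial and fibroblast markers (37.9 to 41.0, 53.8 to 58.4 and 30.7 to 39.2 CPM). Of 8 leukocyte markers 2 were higher and 1 lower (80.0 to 87.7, 135 to 151 and 78.4 to 94.0 CPM), and of 4 plasma cell markers 1 was higher (86.5 to 104, 160.4 to 169 and 84.6 to 108 CPM, with Tnfrsf17 at 0). Nearly all of the plasma cell sum was Sdc1, with means of 95.1, 164.6 and 93.4 CPM. Jchain, Prdm1 and Irf4 each had group means under 1 CPM. No marker was called in AGEs against control. The share of counts on mitochondrial genes was 2.68 to 2.93% for control, 3.26 to 4.11% for high glucose and 2.96 to 3.30% for AGEs. The part of these shifts in the results that follow was not tested.

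To determine how the ER folding machinery responded to high glucose, each member was tested between the 3 libraries grown in high glucose and the 3 controls. Most of the machinery was lower: by edgeR's quasi-likelihood test, 36 of the 46 members fell, 4 rose and 6 did not pass the threshold of an adjusted p of 0.05 (Benjamini-Hochberg over all genes tested). Among all 17680 genes tested 19.7% fell and 19.6% rose (39.3% in either direction). The members were chosen with earlier results of these data known, so the contrast with all genes is a description only. The median log2 fold change of the members was −0.86, against 0.03 for all genes. A fall of at least 2-fold was seen in 20 members (5.3% of all genes) and a fall of at least 4-fold in 9 (1.2% of all genes). The ranges of the 3 high glucose and 3 control libraries did not overlap in 39 members on the low side (25.8% of all genes) and in 5 on the high side (28.3%). With library sizes in place of TMM scaling the median of all genes moved to 0.21, with 4808 genes higher and 2287 lower over the whole table in place of 3466 and 3480, and 33 members fell and 5 rose. Of the 40 calls, 34 held under each of 15 alternatives, and the 6 that did not are named with their genes.

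**Figure D1:**
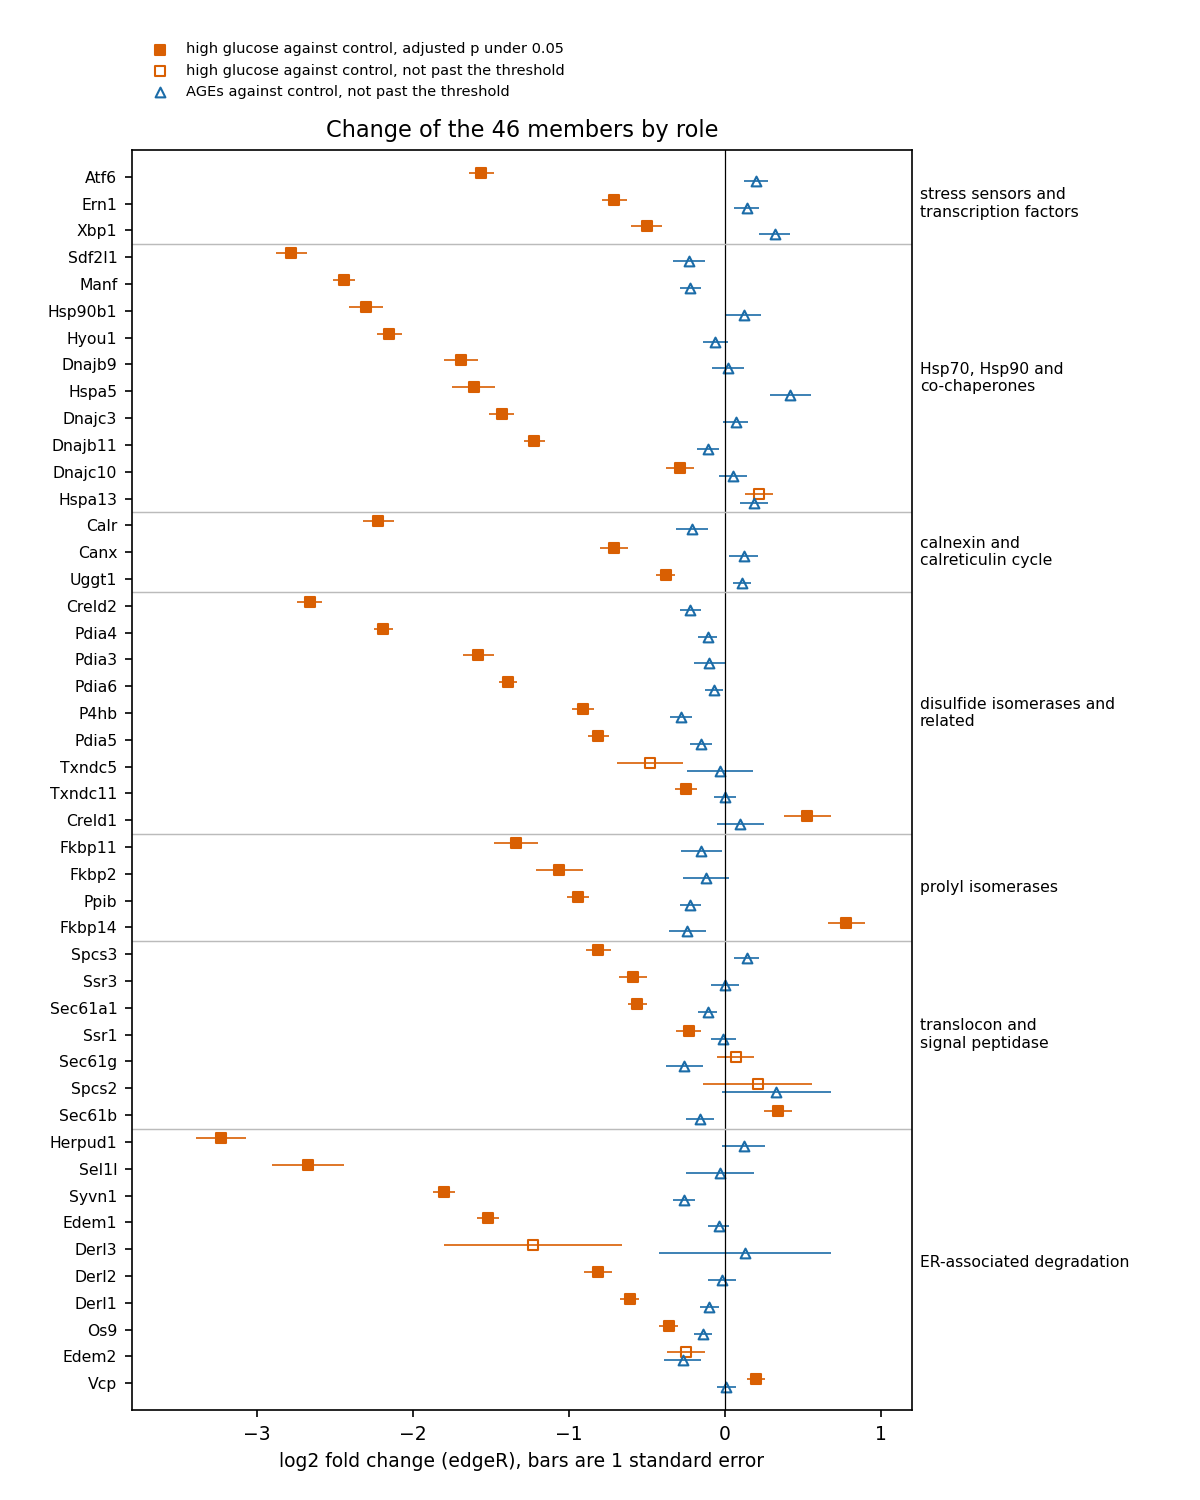
Change of the 46 members by role. Each point is the log2 fold change from edgeR (x axis) of 1 member (y axis) with a bar of 1 standard error, for high glucose against control (squares, filled where the adjusted p is under 0.05) and AGEs against control (open triangles, none past the threshold). The squares run from −3.23 for Herpud1 to 0.78 for Fkbp14, while the triangles lie between −0.28 and 0.42.

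Together the members took 4.950, 4.957 and 4.839% of all counts in the control libraries, 1.785, 1.754 and 1.751% of those with high glucose, and 5.027, 4.840 and 4.629% of those with AGEs. The group means were 4.915 ± 0.066% for control, 1.763 ± 0.0187% for high glucose and 4.832 ± 0.199% for AGEs (SD, n = 3), with high glucose far under both other groups. The Hsp70 and Hsp90 group held the largest part, with 1.813 ± 0.139% in control and 0.5528 ± 0.0165% in high glucose. The calnexin and calreticulin group followed with 1.5 ± 0.0677% and 0.4103 ± 0.0191%, most of it from Calr. In proportion the translocon group moved least, from 0.2339 ± 0.0164% to 0.1944 ± 0.00515%. In bulk RNA a lower share cannot be split into fewer cells that express a gene and less RNA per cell.

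**Figure D2:**
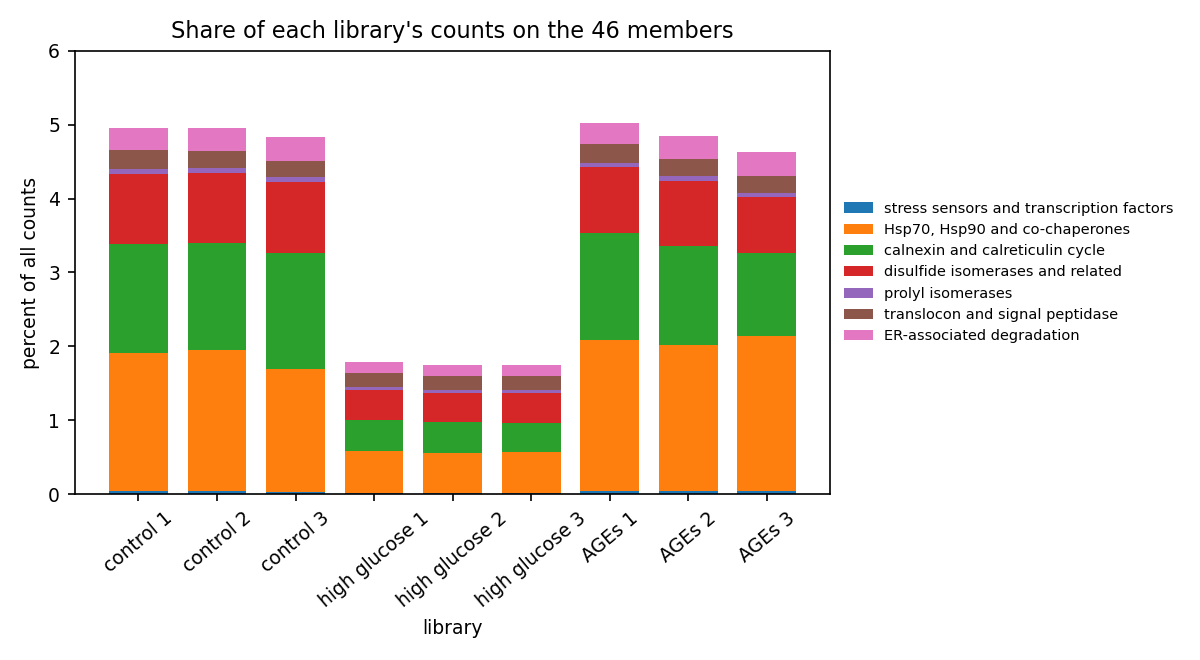
Share of each library's counts on the 46 members. Stacked bars give the percent of all counts (y axis) on each role group in each of the 9 libraries (x axis). The high glucose bars reach 1.75 to 1.79%, and the control and AGEs bars 4.63 to 5.03%.

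The sensors and transcription factors of the response were lower in high glucose, all 3 of 3. Atf6, a membrane-bound transcription factor that is cleaved in the Golgi under ER stress (ENSMUSG00000026663, GRCm38 chromosome 1, 170704674 to 170867771, minus strand), changed most of them. Atf6 counts came to 316, 319 and 292 CPM in the controls, 98.7, 102 and 114 CPM with high glucose and 349.9, 339 and 377 CPM with AGEs. No high glucose library reached the control range, and Atf6 was 2.95-fold lower (−1.56 on the log2 scale with SE 0.08, adjusted p = 1.71e-06). Ern1 encodes Ire1, the sensor kinase and RNase that splices Xbp1 mRNA (ENSMUSG00000020715, GRCm38 chromosome 11, 106394650 to 106487852, minus strand). Levels of Ern1 were 36.1, 38.1 and 36.5 CPM for control, 22.5, 21.9 and 23.3 CPM for high glucose and 40.7, 38.9 and 42.8 CPM for AGEs. It was 1.63-fold lower (−0.71 on the log2 scale with SE 0.08, adjusted p = 0.000129), again without overlap. Xbp1, the transcription factor made from that splicing (ENSMUSG00000020484, GRCm38 chromosome 11, 5520659 to 5525893, plus strand), moved least. Xbp1 was measured at 48.2, 51.6 and 46.9 CPM in the control libraries, 30.8, 38.4 and 34.2 CPM under high glucose and 55.7, 64.9 and 62.0 CPM under AGEs. It fell by 0.50 on the log2 scale (SE 0.10, adjusted p = 0.00361). Counts per gene do not separate spliced from unspliced Xbp1, so the splicing itself was not measured here.

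Of the 10 Hsp70 and Hsp90 chaperones and co-chaperones, 9 fell in high glucose and 8 of them at least 2-fold, with a group median of −1.65 on the log2 scale. Hspa5 (BiP, ENSMUSG00000026864, GRCm38 chromosome 2, 34771970 to 34777547, plus strand) binds unfolded chains in the ER lumen and restrains the 3 sensors. Hspa5 counts came to 6982, 6813 and 6022 CPM in the controls, 2264, 2107 and 2131 CPM with high glucose and 7611, 7810.1 and 11049 CPM with AGEs. The high glucose libraries lay close together and far under the control range, 3.05-fold lower (−1.61 on the log2 scale with SE 0.14, adjusted p = 2.60e-05). Hsp90b1 (Grp94, ENSMUSG00000020048, GRCm38 chromosome 10, 86690209 to 86705509, minus strand) had the highest control level per transcript length of the group, 1787 ± 211 FPKM against 1352 ± 108 FPKM for Hspa5 (mean ± SD, n = 3), ranges that did not overlap. Levels of Hsp90b1 were 8647, 9064 and 7267 CPM for control, 1792, 1569.7 and 1695 CPM for high glucose and 9995, 9148 and 7930.0 CPM for AGEs. It was 4.94-fold lower (−2.30 on the log2 scale with SE 0.11, adjusted p = 1.33e-06). A microRNA gene inside it on the same strand, Gm25745, had 101434 counts over all libraries against 3800627 for Hsp90b1, so that some reads could be assigned to either. On the opposite strand the pseudogene 1810014B01Rik shares 415 exon bases with it and had 130333 counts. The largest fall of the group was in Sdf2l1, which forms a complex with BiP and its J proteins. Sdf2l1 was measured at 469, 436 and 540.4 CPM in the control libraries, 68.7, 75.0 and 67.3 CPM under high glucose and 385, 455 and 393 CPM under AGEs. It was 6.85-fold lower (−2.78 on the log2 scale with SE 0.10, adjusted p = 3.93e-07), and no high glucose library came near the control range. Manf, a secreted ER protein that stabilises BiP complexes, changed by −2.44, and Hyou1 (Grp170), the nucleotide exchange factor of BiP, by −2.15. The J proteins that hand substrates to BiP were lower by less: Dnajb9 at −1.69, Dnajc3 at −1.43, Dnajb11 at −1.22 and the disulfide reductase Dnajc10 at −0.29 on the log2 scale (adjusted p = 0.0262 for the last, from edgeR). The Dnajc10 call was lost in 7 of the 15 alternatives, among them library sizes alone, both limma fits, and the fits without control library 1 or 2 or high glucose library 1 or 2. Hspa13, a microsome-associated Hsp70 relative, did not pass. Hspa13 counts came to 93.0, 101 and 86.5 CPM in the controls, 104, 105 and 118 CPM with high glucose and 110.5, 110.2 and 99.8 CPM with AGEs. Its 3 high glucose values lay above control (log2 fold change 0.22, adjusted p = 0.0728 by edgeR), and it passed as higher in 5 alternatives, with adjusted p from 0.00796 (library sizes alone) to 0.0496 (without control library 2).

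The calnexin and calreticulin cycle retains glycoproteins in the ER until they fold, and its 3 genes fell in high glucose with a median of −0.71. Calr (calreticulin, ENSMUSG00000003814, GRCm38 chromosome 8, 84841850 to 84846934, minus strand) was the most abundant member by length-scaled level, at 4383 ± 237 FPKM in control. Levels of Calr were 14341, 13883 and 15555 CPM for control, 3241, 3299 and 2871 CPM for high glucose and 13923, 13059 and 10976 CPM for AGEs. It was 4.65-fold lower (−2.22 on the log2 scale with SE 0.10, adjusted p = 8.92e-07). By mean FPKM over the group, Calr ranked 2 among all genes for control, 25 for high glucose and 4 for AGEs. Its membrane-bound partner Canx (calnexin) changed by −0.71 and the folding sensor Uggt1, which reglucosylates unfolded glycoproteins, by −0.38.

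Among the 9 disulfide isomerases and related genes 7 fell and 1 rose, with a median of −0.91. Creld2, a secreted ER stress protein with epidermal growth factor domains, changed most. Creld2 was measured at 822, 796 and 890.2 CPM in the control libraries, 139, 137 and 121 CPM under high glucose and 695, 752 and 713 CPM under AGEs. It was 6.33-fold lower (−2.66 on the log2 scale with SE 0.08, adjusted p = 1.42e-07), with both ranges narrow and far apart. Pdia4 (ERp72) had the highest mean control FPKM of the group, 747 ± 11.5, followed by Pdia3 at 733 ± 25.9 and P4hb at 722 ± 36.2 FPKM (mean ± SD, n = 3), whose order cannot be told apart at this spread. Pdia4 counts came to 2115, 2049.7 and 2050.5 CPM in the controls, 458, 448 and 454 CPM with high glucose and 1972, 1967 and 1815 CPM with AGEs. Pdia4 was 4.57-fold lower (−2.19 on the log2 scale with SE 0.06, adjusted p = 1.42e-07). Pdia3 (ERp57), which works on glycoproteins bound by the lectin chaperones, changed by −1.58, Pdia6 by −1.39, the abundant isomerase P4hb by −0.91 and Pdia5 by −0.81 on the log2 scale. Txndc11 changed by −0.25 (adjusted p = 0.0197 by edgeR), a call lost in 7 of the 15 alternatives, among them library sizes alone, both limma fits, and the fits without control library 2 or 3 or high glucose library 1 or 3. It shares exon bases with Snn on the opposite strand, which had 97.5% as many counts.

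Txndc5, a thioredoxin-domain isomerase, did not pass. Levels of Txndc5 were 303, 287 and 333 CPM for control, 259.9, 138 and 263 CPM for high glucose and 285, 301 and 316 CPM for AGEs. High glucose library 2 was far under the other 2 (log2 fold change −0.48, adjusted p = 0.0956 by edgeR), and without it the change was −0.23 (adjusted p = 0.0722). DESeq2 called Txndc5 lower (adjusted p = 0.0469). Creld1, the membrane-anchored relative of Creld2, moved the other way. Creld1 was measured at 32.1, 32.8 and 36.6 CPM in the control libraries, 48.9, 52.0 and 45.8 CPM under high glucose and 30.2, 33.2 and 45.4 CPM under AGEs. All high glucose values lay above the control range, 1.44-fold higher (0.53 on the log2 scale with SE 0.15, adjusted p = 0.017). It no longer passed when control library 1 or 2 (adjusted p = 0.0633 and 0.0511) or high glucose library 2 (adjusted p = 0.0576) was left out. AGEs library 3 came close to the lowest high glucose library, while AGEs libraries 1 and 2 stayed within or under the control range.

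The prolyl isomerases speed the rotation of proline bonds in folding chains, and 3 of 4 fell. Fkbp11 counts came to 70.7, 65.4 and 82.8 CPM in the controls, 26.9, 33.2 and 26.4 CPM with high glucose and 69.4, 71.1 and 56.8 CPM with AGEs. Fkbp11 was 2.53-fold lower (−1.34 on the log2 scale with SE 0.14, adjusted p = 6.60e-05), with high glucose library 2 the highest of its group. Ppib (cyclophilin B), which acts on procollagen, had the highest control level of the group at 131 ± 8.98 FPKM. Levels of Ppib were 490.3, 467 and 539.7 CPM for control, 263, 266 and 253 CPM for high glucose and 425, 455 and 402 CPM for AGEs. It was 1.92-fold lower (−0.94 on the log2 scale with SE 0.07, adjusted p = 1.93e-05), without overlap. Fkbp2 changed by −1.06 (adjusted p = 0.000483, edgeR). Fkbp14, a collagen-binding isomerase, rose. Fkbp14 was measured at 10.04, 10.03 and 10.56 CPM in the control libraries, 18.2, 16.6 and 17.9 CPM under high glucose and 9.17, 9.26 and 7.54 CPM under AGEs. It was 1.72-fold higher (0.78 on the log2 scale with SE 0.12, adjusted p = 0.000588), with a gap between the ranges. Its exons overlap Plekha8 on the opposite strand, which had 215% as many counts and a log2 fold change of 0.

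The translocon and signal peptidase genes changed least as a group, with 4 of 7 lower, 1 higher and a median of −0.23. Spcs3, a subunit of the signal peptidase, changed most. Spcs3 counts came to 453, 430.4 and 374 CPM in the controls, 241, 228 and 249 CPM with high glucose and 481, 439 and 468 CPM with AGEs. It was 1.75-fold lower (−0.81 on the log2 scale with SE 0.08, adjusted p = 6.89e-05). Ssr3, a subunit of the translocon-associated TRAP complex, had the highest control level of the group (220.2 ± 22.1 FPKM). Levels of Ssr3 were 1140.3, 1102 and 943 CPM for control, 719, 667 and 731 CPM for high glucose and 1131, 1076 and 983 CPM for AGEs. The fall was −0.59 on the log2 scale with SE 0.09, adjusted p = 0.000601, without overlap. The channel subunit Sec61a1 changed by −0.56, and the TRAP subunit Ssr1 by −0.23 (adjusted p = 0.0379, edgeR). The Ssr1 call was lost in 9 of the 15 alternatives, among them the fits without each control library in turn and without high glucose library 2 or 3.

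The small channel subunits did not follow Sec61a1. Sec61b was measured at 57.1, 49.6 and 59.8 CPM in the control libraries, 72.8, 73.2 and 65.0 CPM under high glucose and 47.5, 50.6 and 50.9 CPM under AGEs. Sec61b was 1.27-fold higher in high glucose (0.34 on the log2 scale with SE 0.09, adjusted p = 0.015), and it no longer passed when high glucose library 1 (adjusted p = 0.0543) or 2 (adjusted p = 0.0544) was left out. Sec61g counts came to 77.5, 62.6 and 79.9 CPM in the controls, 80.7, 80.1 and 69.8 CPM with high glucose and 64.5, 66.6 and 52.8 CPM with AGEs. The Sec61g ranges overlapped (log2 fold change 0.07, adjusted p = 0.708 by edgeR), and the sign turned without control library 2 (−0.03). Sec61g has a transcribed pseudogene, Gm10177, identical over 420 bases, with 12.4% as many counts. Spcs2, another subunit of the signal peptidase, varied widely within control and within AGEs. Levels of Spcs2 were 236, 73.7 and 169 CPM for control, 196, 187 and 169.6 CPM for high glucose and 264, 158 and 179.6 CPM for AGEs. Control library 2 was the lowest of all 9 (log2 fold change 0.21, adjusted p = 0.688 by edgeR), and without it the change was −0.13.

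In ER-associated degradation 7 of 10 genes fell, 1 rose and 2 did not pass, with a median of −1.02. Herpud1, a membrane adaptor of the Hrd1 complex (ENSMUSG00000031770, GRCm38 chromosome 8, 94386438 to 94395377, plus strand), had the largest change of all 46 members. Herpud1 was measured at 1046, 1024 and 1128 CPM in the control libraries, 109, 124 and 108 CPM under high glucose and 991, 1016 and 1476 CPM under AGEs. It was 9.40-fold lower (−3.23 on the log2 scale with SE 0.16, adjusted p = 1.30e-06), and AGEs library 3 was the highest of all 9. Sel1l, the subunit that holds Hrd1 stable, changed by −2.67 (SE 0.23, adjusted p = 2.98e-05), from 374, 588 and 563 CPM in control to 65.1, 70.5 and 105 CPM in high glucose. Syvn1, the ubiquitin ligase Hrd1 itself, changed by −1.80, and Edem1, a mannosidase-like factor that passes glycoproteins on for degradation, by −1.52. The derlins Derl2 and Derl1, membrane proteins of the retrotranslocation site, changed by −0.81 and −0.61, and the lectin Os9 by −0.36. Syvn1 and Derl2 share exon bases with Mrpl49 and Mis12 on the opposite strand, with 54.2% and 72.2% as many counts. The summed level of Syvn1 and Mrpl49 changed by −0.89 on the log2 scale, and that of Derl2 and Mis12 by −0.52.

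The other 3 genes of this group behaved otherwise. Edem2 counts came to 90.1, 83.0 and 96.6 CPM in the controls, 79.1, 79.2 and 68.8 CPM with high glucose and 78.8, 82.9 and 61.4 CPM with AGEs. Edem2 lay lower in all 3 high glucose libraries without passing (log2 fold change −0.25, adjusted p = 0.137 by edgeR). Derl3, the stress-induced derlin, had few counts, 17, 25 and 19 for control, 12, 8 and 8 for high glucose and 13, 25 and 33 for AGEs. Its control level was 0.133 ± 0.0232 FPKM, and its log2 fold change of −1.23 had an SE of 0.57 (adjusted p = 0.122, edgeR). Vcp (p97), the ATPase that pulls substrates out of the membrane and has many tasks outside the ER, was higher. Levels of Vcp were 458, 496 and 459 CPM for control, 518, 566 and 542 CPM for high glucose and 459, 485 and 476 CPM for AGEs. It was 1.15-fold higher (0.20 on the log2 scale with SE 0.06, adjusted p = 0.0281), which no longer passed when control library 1 or 3 (adjusted p = 0.105 and 0.0765) or high glucose library 2 or 3 (0.107 and 0.0658) was left out, or with no filter on low counts (0.0516). Its copy Vcp-rs, 99.05% identical over 2421 bases, had 46.6% as many counts, at 219, 197 and 247 CPM for control and 277, 216 and 216 CPM for high glucose, so that reads may be split between them. The summed level of both changed by 0.17 on the log2 scale.

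**Figure D3:**
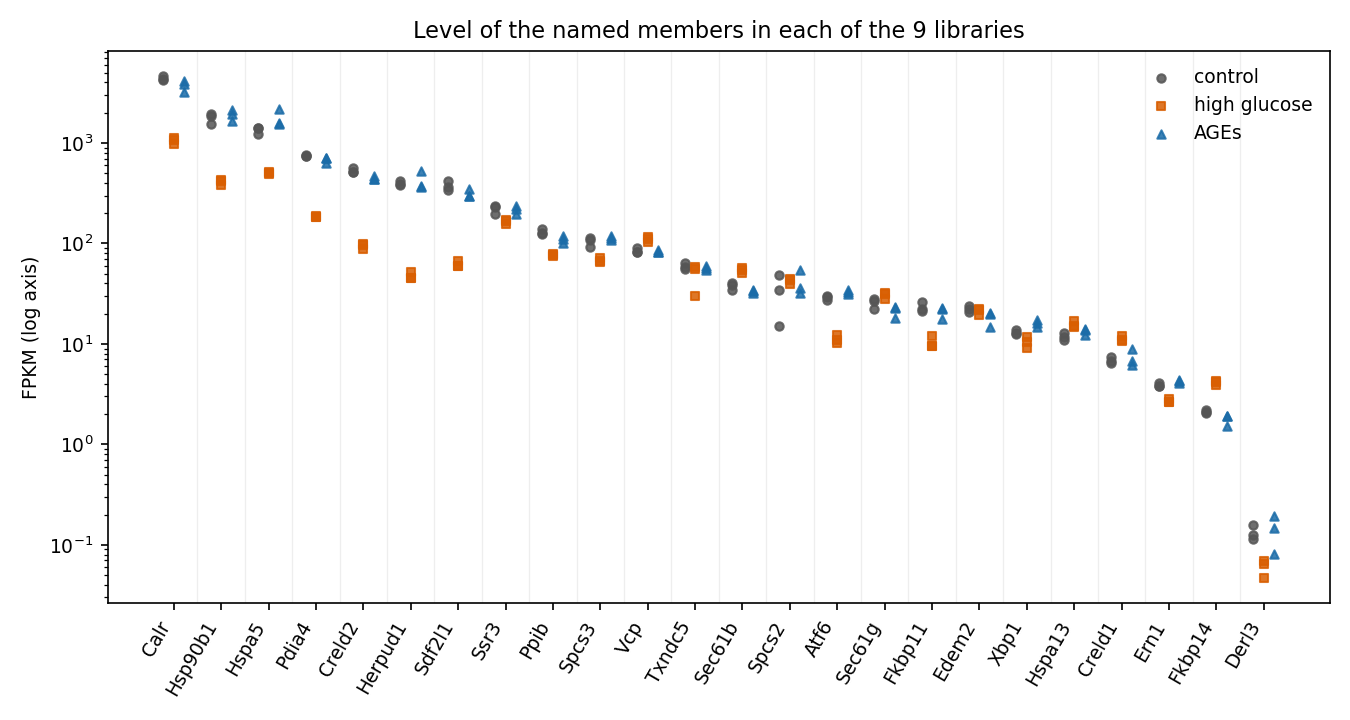
Level of the named members in each of the 9 libraries. Points give deposited FPKM (y axis, log axis) per library for the members named in high glucose against control and for Hspa5, ordered by mean control level, with circles for control, squares for high glucose and triangles for AGEs. High glucose points lie under both other groups from Calr to Spcs3. They lie above control for Vcp, Sec61b, Creld1 and Fkbp14, which were called higher. In FPKM they also lie above control for Hspa13 and, barely, for Sec61g, neither of which was called. Txndc5 and Spcs2 each have 1 library far from the others.

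The members differed in level as well as in change. At a mean of at least 100 FPKM over all libraries stood 14 members, and all 14 fell, with a median of −1.90. Of the 32 members under 100 FPKM, 22 fell and 4 rose, with a median of −0.58. Of all genes, 495 were at or above 100 FPKM, of which 57.4% fell (median −0.41), against 18.6% of the rest (median 0.04). Across the 46 members the level and the log2 fold change had a Spearman rho of −0.53, as a description of genes that share 9 libraries and the high glucose contrast. Deposited FPKM values carry no TMM scaling, so FPKM ratios between groups differ from the fitted folds.

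**Figure D4:**
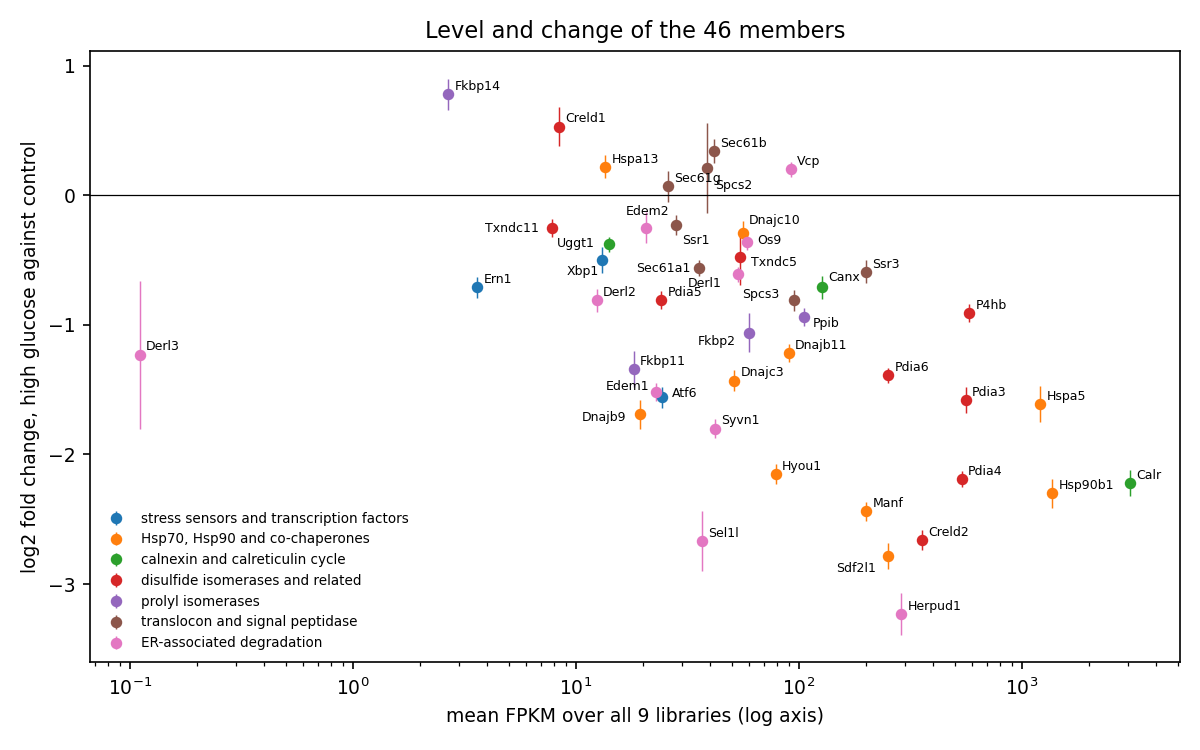
Level and change of the 46 members. The x axis gives the mean FPKM over all 9 libraries (log axis), the y axis the log2 fold change of high glucose against control with bars of 1 standard error, and colours the role groups. All 14 members at or above 100 FPKM lie under 0, and the 4 that rose lie under 100 FPKM.

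Members with an ER stress element in the promoter window were then set beside other genes with the same letters. Of the 9 members with an ERSE 8 fell, from Canx at −0.71 to Creld2 at −2.66, and Derl3 did not pass. Both members with an ERSE-II fell, Dnajb11 at −1.22 and Herpud1 at −3.23. Over all 46 members, whether with an element, without one or with no promoter searched, 36 fell (median −0.86). Outside the list 10 genes with an ERSE were tested, of which 2 fell (Zfp57 and Alg12) and 1 rose (Acacb), with a median of 0.19. Of 8 other genes with an ERSE-II, 5 fell and 0 rose, with a median of −0.49. Among all 11338 tested genes with a promoter 21.3% fell, with a median of 0.04. The 4 members that rose held no exact match to ERSE or ERSE-II in this window. Large falls also occurred without an exact match to either, as in Sdf2l1, Pdia4 and Sel1l. Sites that differ from these letters were not searched for. In a shorter window, from 150 bases before to the start, 7 members held an ERSE.

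**Figure D5:**
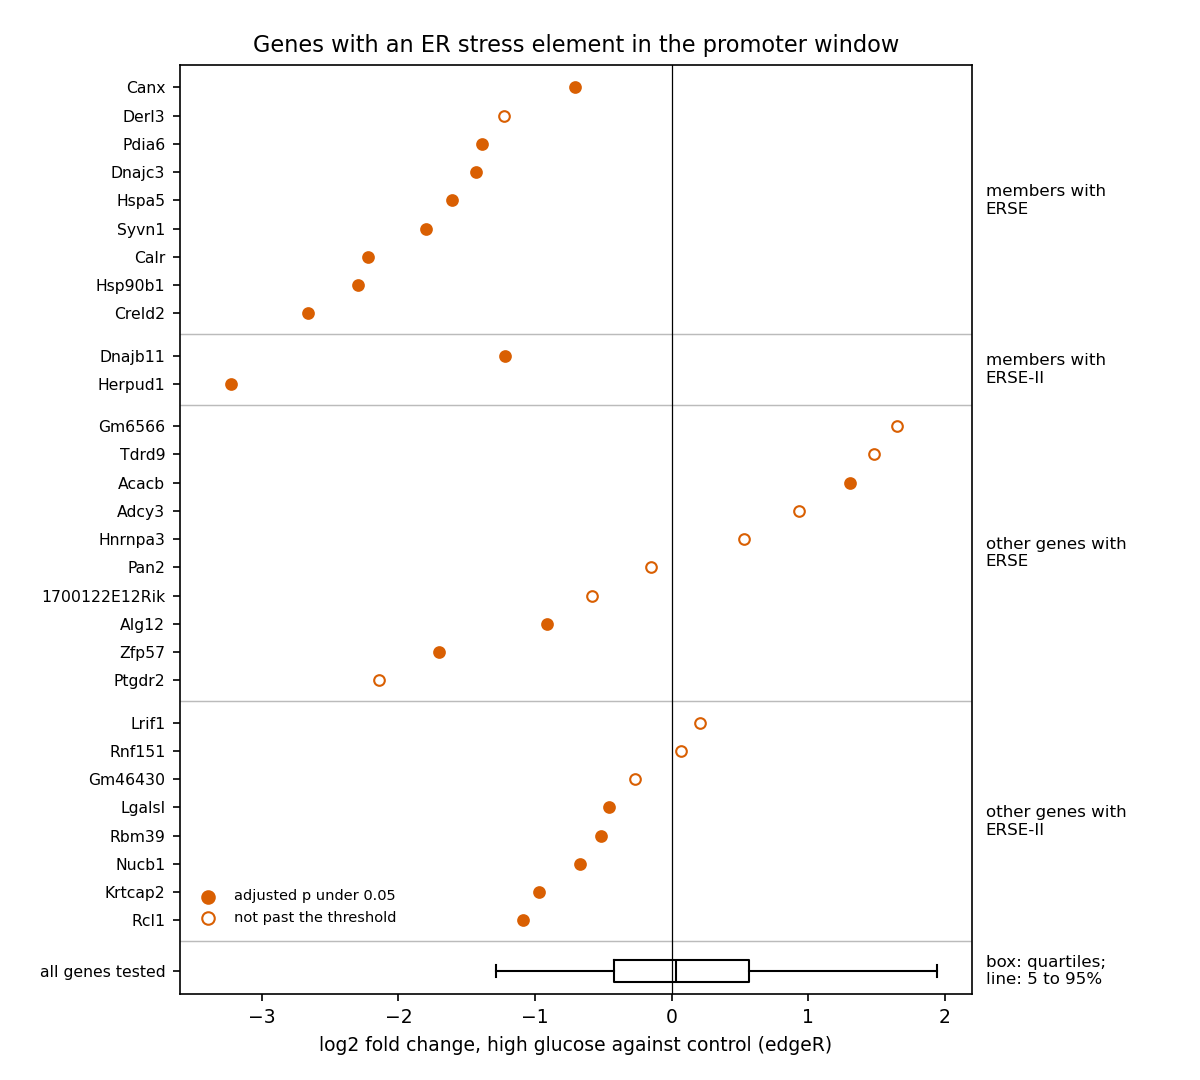
Genes with an ER stress element in the promoter window. Points give the log2 fold change of high glucose against control (x axis) for each gene (y axis), filled where the adjusted p is under 0.05, and the box shows all genes tested (quartiles, line from 5 to 95%). The 11 members lie between −3.23 and −0.71, while other genes with ERSE spread on both sides of 0.

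Other genes of the same and neighbouring pathways were read from lists of 154 genes, 20 of them chaperones of the cytosol and mitochondria. Of the 154 genes 151 were tested, and 69 fell and 22 rose in high glucose (median −0.23). With library sizes alone 55 fell and 34 rose. Over all 17680 genes tested 19.7% fell and 19.6% rose, and with library sizes alone 2287 fell and 4808 rose. The arm that runs through Perk and the integrated stress response fell with the members, 8 of 10 lower and 0 higher. Ddit3 was measured at 1692, 1655 and 1668 CPM in the control libraries, 48.8, 50.3 and 42.8 CPM under high glucose and 1569, 1614 and 1909 CPM under AGEs. Ddit3, which encodes the transcription factor CHOP, changed by −5.14, the phosphatase subunit gene Ppp1r15a by −3.06 and Atf3 by −2.83 on the log2 scale. Atf4 counts came to 1654, 1591 and 643 CPM in the controls, 660.4, 387 and 376 CPM with high glucose and 1465, 792 and 846 CPM with AGEs. Atf4 varied within each group and changed by −1.45 (SE 0.39, adjusted p = 0.0149, edgeR). The sensor gene itself, Eif2ak3 (Perk), did not pass (−0.11, adjusted p = 0.455). In oxidative folding 6 of 13 other genes fell and 2 rose, led by the oxidases Ero1a (−1.84) and Ero1b (−1.66), which recharge the disulfide isomerases, and Tmx4 (−0.88). In ER-associated degradation 12 of 25 fell and 2 rose, with Erlin1 at −1.82, Selenos at −1.21 and Selenok at −0.93.

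The remaining lists are given by their counts and the genes with the largest called changes. These counts stand beside 19.7% of all genes lower and 19.6% higher. In glycan transfer and trimming 10 of 16 fell and 2 rose (Uggt2 −1.05, Krtcap2 −0.97, Ostc −0.74), and in translocation 9 of 18 fell and 3 rose (Srp72 −1.05, Ssr4 −0.99, Sec11c −0.97). Of 8 other Hsp70 exchange and J protein genes 2 fell, Sil1 (−0.54) and Dnajb14 (−0.32), and 1 rose, Sdf2 (0.63), the relative of Sdf2l1. On the sensor processing list 9 genes were tested, of which 3 fell and 3 rose, with the transcription factor gene Creb3l1 at 1.09. The list also holds the BCL2 family genes Bak1, at 0.60, and Bbc3, at −0.55.

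To determine how the same genes responded to AGEs, each member was tested between the libraries with AGEs and the controls. No member passed by edgeR (0 of 46), where 15 of all 17680 genes tested did (0.0848%, of which 0.0509% higher and 0.0339% lower). DESeq2, limma at both pseudocounts and each other alternative also called 0 members, where DESeq2 called 196 genes higher and 129 lower over the whole table. At an unadjusted p under 0.05 there were 10 members, against 12.4% of all genes. The log2 fold changes ran from −0.28 to 0.42 with a median of −0.04 (all genes 0), and the smallest adjusted p of a member was 0.255. In simulated data the fit recovered 14.9% of 1.5-fold changes in this comparison, so changes as small as these can go uncalled. The AGEs and control ranges did not overlap for 5 members on the high side (9.47% of all genes) and for 12 on the low side (9.73%).

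Hspa5 had the largest change, 0.42 (SE 0.13, adjusted p = 0.315). Its AGEs libraries 1 and 2, at 7611 and 7810.1 CPM, lay above the control maximum of 6982, and library 3 reached 11049 CPM; without library 3 the change was 0.22 (adjusted p = 0.412). Xbp1 followed at 0.32 (SE 0.10, adjusted p = 0.317), with all 3 AGEs libraries above the control range, and Atf6 and Ern1 also lay above it, at 0.20 and 0.14. P4hb (−0.28, adjusted p = 0.255) and Edem2 (−0.27, adjusted p = 0.401) had the lowest values. Levels of P4hb were 2350.3, 2280.1 and 2535 CPM for control, 1288, 1278 and 1241 CPM for high glucose and 2041, 2071 and 1806 CPM for AGEs. Every AGEs value of P4hb lay under control, and Edem2 at −0.27 moved to −0.15 without AGEs library 3. Spcs2 at 0.33 rested on control library 2 and was −0.01 without it. Of the 151 other listed genes tested 0 were called by edgeR, and 19 had an unadjusted p under 0.05 (12.4% of all genes).

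The direct comparison of AGEs with high glucose tests whether the 2 treatments differ, and it shares its libraries with the comparisons above. In it 36 members were higher in AGEs (19.7% of all genes tested), 4 were lower (20.2%, and 39.9% either way) and 6 did not pass. The median log2 fold change was 0.84, against −0.02 for all genes. Herpud1 differed by 3.36, Sdf2l1 by 2.55, Creld2 by 2.45, Hsp90b1 by 2.42, Hspa5 by 2.03, Calr by 2.01, Atf6 by 1.76, Ern1 by 0.85 and Xbp1 by 0.82. Lower in AGEs than in high glucose were Fkbp14 (−1.02, adjusted p = 0.000124), Sec61b (−0.50, adjusted p = 0.00204), Creld1 (−0.43, adjusted p = 0.0412) and Vcp (−0.20, adjusted p = 0.0322), all by edgeR. The calls of Creld1 and Vcp were each lost under several alternatives (7 and 6 of 15), those of Dnajc10, Txndc11, Ssr1 and Os9 under 5, 6, 10 and 7, and the other 34 held in each of 15. Leaving out any 1 of the 3 AGEs libraries, or high glucose library 2 or 3, ended the Vcp call, and leaving out any 1 of the 3 high glucose libraries, or AGEs library 1 or 2, ended that of Creld1. The call of Dnajc10 ended without high glucose library 2 or AGEs library 1, that of Ssr1 without high glucose library 2 or 3 or AGEs library 1 or 2, and those of Txndc11 and Os9 without high glucose library 1 or 3 or AGEs library 2. Not past the threshold were Hspa13, Txndc5, Sec61g, Spcs2, Edem2 and Derl3, the same 6 genes as in high glucose against control.

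Counting limits bear on a few members. In GENCODE mouse release 21, 14 members share exon bases with a gene on the opposite strand and 5 have a transcript of another gene that is at least 95% identical over at least 200 bases; the strand setting of the counting is not given in the sources used here. Each gene with at least 10% as many counts as the member it overlaps or resembles is given with that member. For Txndc5 the overlapping gene Bmp6 had 15.2% as many counts, at a log2 fold change of 0.02.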

How the data were processed

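RNA from 9 libraries of the line MCP5 (TRIzol extraction, per the labels' protocols) was sequenced. Trimming with cutadapt 1.9, quality control with FastQC and the genome build GRCm38 are named in the submitters' processing notes, while for the aligner, counter, annotation and strandedness the entry is: not given in the sources used here. The authors deposited 1 table with read counts and FPKM per gene (units per the file headers), in which FPKM is 1e-04 where the count is 0.

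Counts were tested with edgeR 4.0.16 in R 4.3.3 (filterByExpr, TMM, group means, quasi-likelihood test, all 9 libraries in 1 fit), adjusted by Benjamini-Hochberg over 17680 genes and called at an adjusted p of 0.05. The common biological coefficient of variation was 0.278, and the total counts of 46284878 to 77242281 set the counting precision. CPM were computed with TMM factors. Alternatives were DESeq2 1.42.0, library sizes alone, TMM factors without the listed genes, no filter, a mean CPM of at least 1, limma 3.58.1 on log2(FPKM + 1) and log2(FPKM + 0.1), a replicate block, only the groups compared, and each library left out. The fit was tested on simulated data before use.

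Members and lists were chosen with earlier results of these data known. Values in every library are given for the largest called fall and rise and the highest control FPKM of each role, all sensors, all members not called in high glucose, and the 5 largest changes in AGEs. In each other list up to 3 called genes with the largest change are named among those with a mean of at least 1 FPKM in a group, and Ddit3, Atf4 and Eif2ak3 besides. One marker gene is not reported here.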

Additional observations from a re-analysis of the deposited data

How the results depend on the processing

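Over 15 alternatives each, the count of members lower in high glucose than in control ran from 33 to 37 and that of higher members from 1 to 5. Leaving out 1 library gave 33 to 34 lower and 1 to 4 higher members, with 2 higher without control library 1 and 1 without high glucose library 2. For AGEs against control 0 members were called in each alternative. For AGEs against high glucose 32 to 36 members were higher, and 2 were lower with no filter on low counts and 2 to 3 when 1 library was left out. Among the 151 other listed genes tested 34 were higher in high glucose with library sizes alone, where 4808 of all 17680 genes were higher. The share of counts was 5.291% (control), 1.840% (high glucose) and 5.205% (AGEs) without the 10 most abundant genes in the denominator. Among those 10 genes are 3 members, which stayed in the numerator. As a share of summed FPKM the members took 3.826, 1.355 and 3.783%. With 1 library left out the share of counts stayed at 4.895 to 4.953, 1.753 to 1.769 and 4.735 to 4.934%.

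Among the members named with values in every library, signs turned in those that did not pass. Without control library 2 these were Sec61g (−0.03) and Spcs2 (−0.13) in high glucose and Spcs2 (−0.01) in AGEs. In AGEs against high glucose, Edem2 (−0.03) became 0.01 without high glucose library 1 or 2 and 0.10 without AGEs library 3, and Hspa13 (−0.03) became 0.03 without high glucose library 3 and 0.02 without AGEs library 3. Spcs2 (0.12) became −0.07 with library sizes alone, −0.10 and −0.11 by limma and −0.12 without AGEs library 1. Over all settings that left out 1 library, the ranges were −0.03 to 0.13 for Sec61g and −0.13 to 0.60 for Spcs2 in high glucose, −0.01 to 0.72 for Spcs2 in AGEs, and in AGEs against high glucose −0.11 to 0.10 for Edem2, −0.06 to 0.03 for Hspa13 and −0.12 to 0.27 for Spcs2. The cause was not tested.

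The labels number the libraries 1 to 3 in each group. Same-numbered libraries did not deviate together (correlations of −0.07 to 0.08, none of 9 over 0.1), so the numbers were not taken as pairs, and 2 of the 9 libraries correlated best with their own number. With the replicate number as a block, 36 members were lower and 4 higher in high glucose, 0 were called in AGEs against control, and 35 were higher and 4 lower in AGEs against high glucose. Over all genes the block gave 3170 lower and 3152 higher in high glucose, in place of 3480 and 3466, and 5 in place of 15 for AGEs against control. Derl3, with at most 33 counts in a library, is the member whose depth limits its comparisons most, and a mean CPM of at least 1 left it out.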

Other observations

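Genes next to the ER folding machinery moved in both directions in high glucose, by edgeR's quasi-likelihood test. So did the whole table, where 19.7% of all genes tested fell and 19.6% rose. Of 21 genes of the COPII coat, which buds vesicles from the ER, and its cargo receptors 8 fell and 1 rose (median log2 fold change −0.17). Named among them are the cargo receptor Tmed2 (−1.94, adjusted p = 0.00139), Mcfd2 (−0.74, adjusted p = 0.000441), which carries glycoproteins together with Lman1, and the coat subunit Sec23a (−0.68, adjusted p = 0.00157). Of 12 collagen folding genes tested 3 fell and 3 rose (median 0.01). The prolyl hydroxylase subunits P4ha1 (−1.25, adjusted p = 2.21e-05) and P4ha2 (−1.11, adjusted p = 1.24e-05) fell, and the lysyl hydroxylase Plod1 (0.54, adjusted p = 0.00391) rose. The largest called change of this list was a rise of Fkbp10, a prolyl isomerase that acts on collagen (3.11 with SE 0.98, adjusted p = 0.0314). It is under the minimum of 1 FPKM for named genes and was added after its values were seen. Its counts were 16, 0 and 11 for control, 86, 62 and 120 for high glucose and 19, 19 and 4 for AGEs.

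Of 19 chaperones of the cytosol and mitochondria tested 8 fell and 5 rose (median −0.24). The mitochondrial chaperones Hspd1 (−1.46, adjusted p = 1.39e-06) and Hspa9 (−1.23, adjusted p = 8.83e-07) fell, while the cytosolic Hsp110 family member Hsph1 (1.15, adjusted p = 0.000277) rose. In AGEs against control edgeR called 0 of these genes (0.0848% of all genes tested). At an unadjusted p under 0.05 were 4 of 21 COPII genes, 0 of 12 collagen genes and 6 of 19 cytosolic and mitochondrial chaperones. Over all genes tested that share was 12.4%.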
